A study of Mus musculus with 12 samples.

Results

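The glypicans (Gpc1 to Gpc6) and syndecans (Sdc1 to Sdc4) were taken by gene symbol from both count tables of a mouse RNA-seq study, which gave 10 of 55228 listed genes. Of these, 9 passed the filter on low counts and were tested among 18805 genes, and Gpc5 did not pass. The study set bladder against urethral mesenchyme, the connective and muscle-forming layer beneath the epithelium, to find genes that mark each compartment at 2 stages of development. Its 4 groups were E18.5 bladder, E18.5 urethral, E14.5 bladder and E14.5 urethral mesenchyme (E, embryonic day), with 3 libraries each. All groups were untreated wild-type female embryos of the CD-1 strain, and each library came from the pooled embryos of 1 litter, after trypsin digestion and separation of the epithelium with forceps. The stages were counted in separate tables, so stage and table cannot be told apart.

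Both families carry heparan sulfate, a sulfated sugar chain that binds growth factors, morphogens and matrix proteins at the cell surface. Glypicans are held in the outer membrane leaflet by a lipid (GPI) anchor and can promote or restrain Wnt, Hedgehog, FGF and BMP signals. Syndecans span the membrane, and their short cytoplasmic tails bind PDZ proteins and the actin cytoskeleton. In the lower urinary tract such signals pass between the epithelium and the surrounding mesenchyme while smooth muscle forms.

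Library totals ranged from 21495169 to 36349777 counts. Levels are TMM-scaled CPM, counts relative to the size of the library, and comparisons between genes use CPM per kilobase of exon. Among mesenchymal genes, Vim had 542 to 1090 CPM and Col1a1 1517 to 11839 CPM over all libraries. Pdgfra and Pdgfrb were lower, at 119 to 785 and 75.5 to 226 CPM. At both stages Pdgfra and Pdgfrb averaged less in bladder than in urethra, whereas Vim and Col1a1 averaged more. Genes of epithelium were also present: 17 of them summed to 11841 to 15854 CPM in E18.5 bladder, 4266 to 6460 CPM in E18.5 urethra, 405 to 2050 CPM in E14.5 bladder and 985 to 2281 CPM in E14.5 urethra, and none was at 0 in any library (lowest 2.12 CPM, Krt5 in E14.5 bladder). The sum of 8 smooth muscle genes was 22590 to 41907 CPM in E18.5 bladder and 2575 to 2880 CPM in E18.5 urethra, against 6414 to 8505 CPM in E14.5 bladder and 1677 to 3632 CPM in E14.5 urethra. That of 12 neuronal genes was 129 to 209.9 CPM in E18.5 bladder and 732 to 1995 CPM in E18.5 urethra, against 192 to 505 CPM in E14.5 bladder and 707 to 1107 CPM in E14.5 urethra. In bulk RNA, fewer cells of a type and less RNA per cell cannot be told apart. Each log2 difference stands with its SE; a value above 0 means more RNA in bladder, or at E18.5. A gene is called where its adjusted p is under 0.05 in edgeR's quasi-likelihood test. Each stage has 3 litters, so p-values measure the spread between litter pools.

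**Figure D1:**
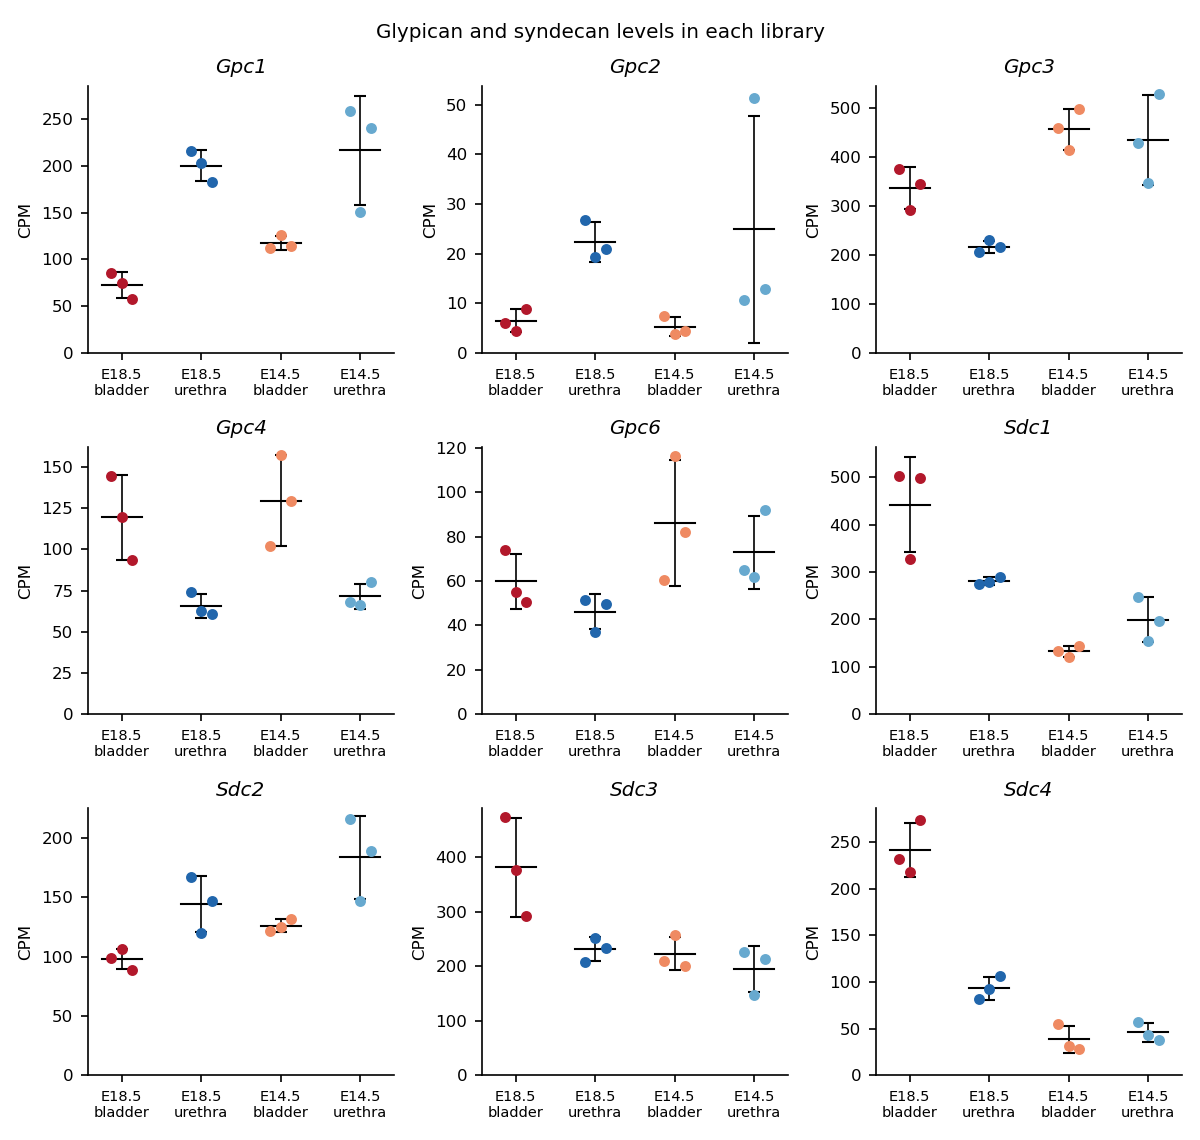
Levels of the 9 tested glypicans and syndecans in each of the 12 libraries, in CPM. Points are libraries, horizontal lines group means and bars SD (n = 3). Gpc1 lies lower in both bladder groups than in the urethral groups, and Sdc4 stands highest in E18.5 bladder, at 218 to 274 CPM.

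Per kilobase of exon, Gpc3 was the most abundant of the 10 genes in all 4 groups. It averaged 125 ± 15.9 CPM per kb in E18.5 bladder, 80.8 ± 4.54 in E18.5 urethra, 169.8 ± 15.6 in E14.5 bladder and 162 ± 33.9 in E14.5 urethra (SD, n = 3 each). These levels ranked 346 among the 18805 tested genes in E18.5 bladder, 444 in E18.5 urethra, 225 in E14.5 bladder and 171 in E14.5 urethra. In E18.5 bladder the next genes were Sdc1 at 116 ± 26.4 and Sdc4 at 94.9 ± 11.5 CPM per kb, and neither neighbouring pair among the 3 was separated, since their libraries overlapped. In E18.5 urethra Gpc3 and Sdc1, at 73.9 ± 2.12 CPM per kb, did not overlap, while Sdc2, Gpc1, Sdc3 and Sdc4, at 36.6 to 40.9 CPM per kb, each overlapped the next. In E14.5 bladder the second gene, Gpc4 at 48.8 ± 10.4 CPM per kb, lay far below Gpc3, and overlapping libraries then linked Gpc4, Sdc3, Sdc2 and Sdc1. In E14.5 urethra Sdc1 and Sdc2 followed Gpc3, with 52.3 ± 12.4 and 52.1 ± 9.92 CPM per kb and overlapping libraries. Gpc2 and Gpc5 had the lowest means in every group, but the libraries of Gpc2 and Gpc6 overlapped in E18.5 urethra and in E14.5 urethra. In E14.5 urethral replicate 2, Gpc2 lay above Gpc6 (9.65 CPM per kb). The place of Gpc2 in this order is also uncertain because it shares exon bases with the predicted gene Gm43720.

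The composition of each family differed between the groups. The syndecans together reached 302 ± 34.1 CPM per kb in E18.5 bladder and 189.99 ± 7.17 in E18.5 urethra, against 123 ± 3.45 in E14.5 bladder and 155 ± 31.6 in E14.5 urethra. The glypican sum was 195 ± 24.99 and 157 ± 5.20 CPM per kb in E18.5 bladder and urethra, against 256 ± 13.8 and 248 ± 43.0 in E14.5 bladder and urethra. At E18.5 every library held more syndecan than glypican RNA per length, with 265 to 330.5 against 178 to 224 CPM per kb in bladder and 186 to 198 against 151 to 161 CPM per kb in urethra. At E14.5 every library held less, with 119 to 126 against 242 to 269.7 CPM per kb in bladder and 123 to 187 against 205 to 291 CPM per kb in urethra. Sdc4 made up 31.5 ± 3.55% of syndecan RNA per length in E18.5 bladder, 19.2 ± 1.92% in E18.5 urethra, 12.2 ± 4.39% in E14.5 bladder and 11.8 ± 2.00% in E14.5 urethra. Sdc2 made up 9.32 ± 1.80% in E18.5 bladder, 21.6 ± 3.58% in E18.5 urethra, 29.2 ± 2.01% in E14.5 bladder and 33.7 ± 0.797% in E14.5 urethra. Gpc1 formed 7.19 ± 1.06% of glypican RNA in E18.5 bladder against 24.7 ± 1.32% in E18.5 urethra, and 8.91 ± 0.659% in E14.5 bladder against 16.8 ± 3.05% in E14.5 urethra. The Gpc4 to Gpc1 ratio per length was 3.14 to 3.29 in E18.5 bladder libraries against 0.600 to 0.668 in E18.5 urethra, and 1.77 to 2.42 in E14.5 bladder against 0.511 to 0.860 in E14.5 urethra.

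**Figure D2:**
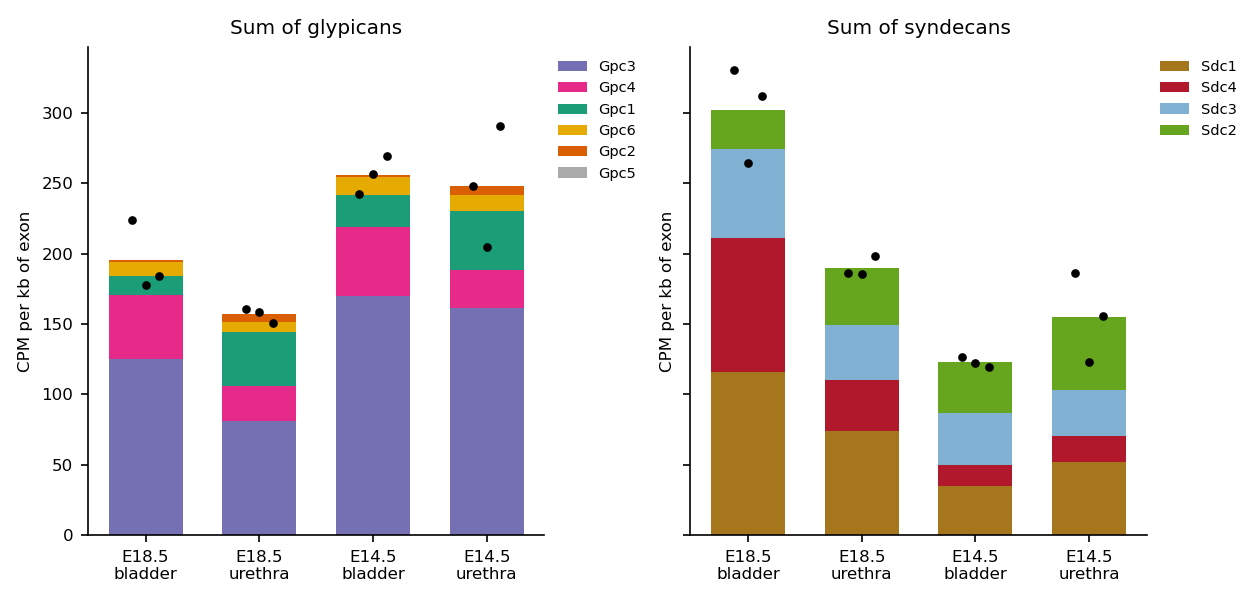
Summed level of the glypicans (left) and syndecans (right) in CPM per kilobase of exon. Stacked bars are group means by gene and points are the sums of the 3 libraries of a group. The syndecan sum is highest in E18.5 bladder (302 CPM per kb), and the glypican sum is highest in E14.5 bladder (256 CPM per kb).

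The comparison of the compartments asked which family members mark bladder or urethral mesenchyme. At E18.5, 8 of the 9 tested members were called: Gpc3, Gpc4, Sdc1, Sdc3 and Sdc4 were higher in bladder, and Gpc1, Gpc2 and Sdc2 were lower. Over all tested genes 34.8% were called at this stage, 16.2% lower and the others higher. The libraries of the compartments did not overlap for the same number of members, 8 of 9, against 52.1% of all tested genes. At E14.5, 5 members were called, Gpc4 higher in bladder and Gpc1, Gpc2, Sdc1 and Sdc2 lower, against 24.9% of all tested genes (12.4% higher and 12.5% lower), and 5 did not overlap, against 37.7%. The median log2 difference of the members was 0.63 at E18.5 and -0.27 at E14.5, beside 0.05 and -0.00 over all tested genes. Leaving out replicate 1 of E18.5 bladder or of E18.5 urethra left 5 members called at E18.5. At E14.5, 2 were left without bladder replicate 2 or replicate 3, and 3 without urethral replicate 1 or replicate 3.

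Gpc1, a glypican known as a co-receptor for FGF2, was lower in bladder at both stages. It had 85.7, 74.4 and 57.5 CPM in E18.5 bladder (replicates 1 to 3), against 216, 202 and 182 CPM in E18.5 urethra. At E14.5 the bladder libraries had 112, 126 and 114 CPM, against 258, 150.3 and 241 CPM in the urethral ones. No bladder library reached a urethral one at either stage. The log2 difference was -1.46 ± 0.19 at E18.5 (2.76-fold lower in bladder, adjusted p = 0.000116) and -0.88 ± 0.19 at E14.5 (1.84-fold lower, adjusted p = 0.00629), and both calls held in every alternative run. Gpc1 lies on the plus strand at chr1:92831645-92860779 (GRCm38), and 18.9% of its exon bases lie opposite exons of Ankmy1. Ankmy1 itself had 0.166 to 0.877 CPM.

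Gpc2, described in rodents as a glypican of developing neurons, was also lower in bladder at both stages, but at low levels and with 1 library far from its group. It had 6.05, 4.45 and 8.96 CPM in E18.5 bladder, against 26.9, 19.3 and 20.9 CPM in E18.5 urethra. E14.5 bladder libraries held 7.45, 3.90 and 4.50 CPM, against 10.6, 51.3 and 12.9 CPM in E14.5 urethra. The groups did not overlap at either stage, and urethral replicate 2 at E14.5 stood well above every other library. The differences were -1.78 ± 0.54 at E18.5 (adjusted p = 0.0250) and -2.25 ± 0.55 at E14.5 (adjusted p = 0.0142). Without urethral replicate 2 the E14.5 difference was -1.16 (adjusted p = 0.0269). The E18.5 call ended without bladder replicate 1 or 2 or urethral replicate 1 (adjusted p = 0.0735 to 0.0875), and the E14.5 call ended without bladder replicate 2 or 3 (0.0568 and 0.0517). All 12 neuronal genes were called lower in bladder at E18.5 and 10 of 12 at E14.5, against 16.2% and 12.5% of all tested genes. E14.5 urethral replicate 2 had a neuronal sum of 707 CPM, against 1107 and 948 CPM in replicates 1 and 3, but it is only 1 library. The part of neuronal RNA in the Gpc2 difference was not tested. Of the exon bases of Gpc2 (chr5:138273655-138280005, minus strand), 55.6% are shared on the same strand with the predicted gene Gm43720, which was listed with 0 counts in every library, so the level of Gpc2 is uncertain.

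Gpc4 and Gpc3 are neighbours on the X chromosome, 107 kb apart on the minus strand. Gpc4, a glypican known to act on Wnt and FGF signals, had 145, 119.9 and 93.5 CPM in E18.5 bladder, against 74.1, 62.4 and 60.8 CPM in E18.5 urethra. At E14.5 it had 102, 157 and 129 CPM in bladder, against 67.9, 66.5 and 80.3 CPM in urethra. All bladder libraries exceeded all urethral libraries of the same stage. The log2 difference was 0.86 ± 0.18 at both stages, 1.81-fold (adjusted p = 0.00260 at E18.5 and 0.00545 at E14.5), and neither call ended in any alternative run. Gpc3, whose loss in humans causes an overgrowth syndrome and which restrains Hedgehog signals in mice, had 376, 291 and 344 CPM in E18.5 bladder, against 206, 231 and 215 CPM in E18.5 urethra. Its libraries overlapped at E14.5, with 459.5, 414 and 497 CPM in bladder, against 429.6, 347 and 529 CPM in urethra. The difference was 0.63 ± 0.15 at E18.5 (adjusted p = 0.00656) and 0.07 ± 0.15 at E14.5 (adjusted p = 0.771). The change of the difference between the stages, 0.56 ± 0.22, was not called (adjusted p = 0.132), though it was without E14.5 urethral replicate 2 (0.70, adjusted p = 0.0429). The genes lie at chrX:52272426-52613950 (Gpc3) and chrX:52053021-52165252 (Gpc4).

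Gpc6 and Gpc5 form the other tandem pair, 400.1 kb apart on the plus strand of chromosome 14. Gpc6, which promotes Hedgehog signalling in the growth plate of mice, had 74.1, 54.8 and 50.7 CPM in E18.5 bladder, against 51.6, 37.1 and 49.6 CPM in E18.5 urethra. Its E14.5 libraries held 60.2, 116 and 82.0 CPM in bladder, against 65.1, 62.0 and 91.7 CPM in urethra. The groups overlapped at both stages, and the differences of 0.38 ± 0.24 and 0.24 ± 0.24 were not called (adjusted p = 0.267 at E18.5 and 0.490 at E14.5). Gpc5 held 63 counts over all 12 libraries: 0, 2 and 6 in E18.5 bladder, 7, 2 and 8 in E18.5 urethra, 9, 4 and 0 in E14.5 bladder and 10, 12 and 3 in E14.5 urethra. At these depths 3 counts correspond to 0.0761 to 0.161 CPM on the same TMM scale (counting error only), and Gpc5 was too low to be tested.

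Sdc2 and Sdc3 differed between the compartments in opposite directions. Sdc2, long known as the syndecan of fibroblasts and other mesenchymal cells, had 99.0, 106 and 89.0 CPM in E18.5 bladder, against 167, 119.9 and 146 CPM in E18.5 urethra. E14.5 levels of Sdc2 were 121, 125 and 132 CPM in bladder, against 216, 147 and 189 CPM in urethra. Bladder lay below urethra at both stages without overlap, by 0.56 and 0.54 on the log2 scale (log2 differences -0.56 ± 0.15, adjusted p = 0.0124, and -0.54 ± 0.15, adjusted p = 0.0220). The E18.5 call ended without bladder replicate 3 (adjusted p = 0.0524) or urethral replicate 1 (0.0642), and the E14.5 call ended without bladder replicate 2 or 3 or urethral replicate 1 or 3 (adjusted p = 0.0533 to 0.0739). Sdc3, the syndecan known from the nervous system and from muscle progenitors, had 474, 377 and 293 CPM in E18.5 bladder, against 208, 252 and 233 CPM in E18.5 urethra. At E14.5 the values overlapped, with 209.9, 257 and 201 CPM in bladder, against 226, 147 and 213 CPM in urethra. The difference was 0.72 ± 0.19 at E18.5 (adjusted p = 0.0112) and 0.19 ± 0.19 at E14.5 (adjusted p = 0.498), and the E18.5 call ended without bladder replicate 1 (0.54, adjusted p = 0.0531). Beside Gpc3, Gpc4 and Sdc3, all 8 smooth muscle genes were called higher in E18.5 bladder, against 3482 of all 18805 tested genes. From E14.5 to E18.5 in bladder all 8 were called higher, against 23.7% of all tested genes. Sdc3 rose there too (0.78 ± 0.19), whereas Gpc3 fell (-0.44 ± 0.15) and Gpc4 was not called (-0.12 ± 0.18). At E14.5, 7 of the 8 were called higher in bladder, against 12.4% of all tested genes. Gpc4 was called higher there as well, and Gpc3 and Sdc3 were not. The part of smooth muscle RNA in the differences of Gpc3, Gpc4 and Sdc3 was not tested.

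Sdc4 and Sdc1 differed between the compartments in a way that changed with the stage. Sdc4, a widely expressed syndecan of focal adhesions that binds protein kinase C alpha, had 232, 218 and 274 CPM in E18.5 bladder, against 81.6, 92.1 and 106 CPM in E18.5 urethra. At E14.5 it had 55.3, 31.5 and 27.9 CPM in bladder, against 57.3, 42.7 and 38.1 CPM in urethra. The E18.5 groups were far apart and the E14.5 groups overlapped. The log2 difference was 1.37 ± 0.24 at E18.5 (2.59-fold, adjusted p = 0.000792) and -0.27 ± 0.24 at E14.5 (adjusted p = 0.430). Without E14.5 bladder replicate 1, the highest of its group, Sdc4 was called lower in bladder at E14.5 (-0.65, adjusted p = 0.0247). Sdc1, the main syndecan of epithelia and of plasma cells, had 503, 326 and 497 CPM in E18.5 bladder, against 274, 279 and 290.3 CPM in E18.5 urethra. Its E14.5 values ran the other way, with 134, 120.2 and 143 CPM in bladder, against 248, 154 and 196 CPM in urethra. Neither stage showed overlap. The difference was 0.65 ± 0.19 at E18.5 (adjusted p = 0.0157) and -0.59 ± 0.19 at E14.5 (adjusted p = 0.0369). The E18.5 call ended without bladder replicate 1 or 3 or urethral replicate 1 (adjusted p = 0.0522 to 0.0612). The E14.5 call ended without any 1 of the 3 E14.5 bladder libraries, E14.5 urethral replicate 1 or 3, or E18.5 urethral replicate 2 or 3 (0.0510 to 0.128).

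The change of the compartment difference from E14.5 to E18.5 was tested directly. Over all tested genes 8.67% were called (4.64% higher and 4.03% lower), and of the 9 members Sdc4 and Sdc1 were, both towards bladder at E18.5. The change was 1.64 ± 0.33 for Sdc4 (adjusted p = 0.0113) and 1.24 ± 0.26 for Sdc1 (adjusted p = 0.0132). In every alternative run both stayed called, with changes of 1.45 to 1.99 for Sdc4 and 1.04 to 1.42 for Sdc1. The other 7 members had changes of -0.58 ± 0.27 (Gpc1) to 0.56 ± 0.22 (Gpc3).

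**Figure D3:**
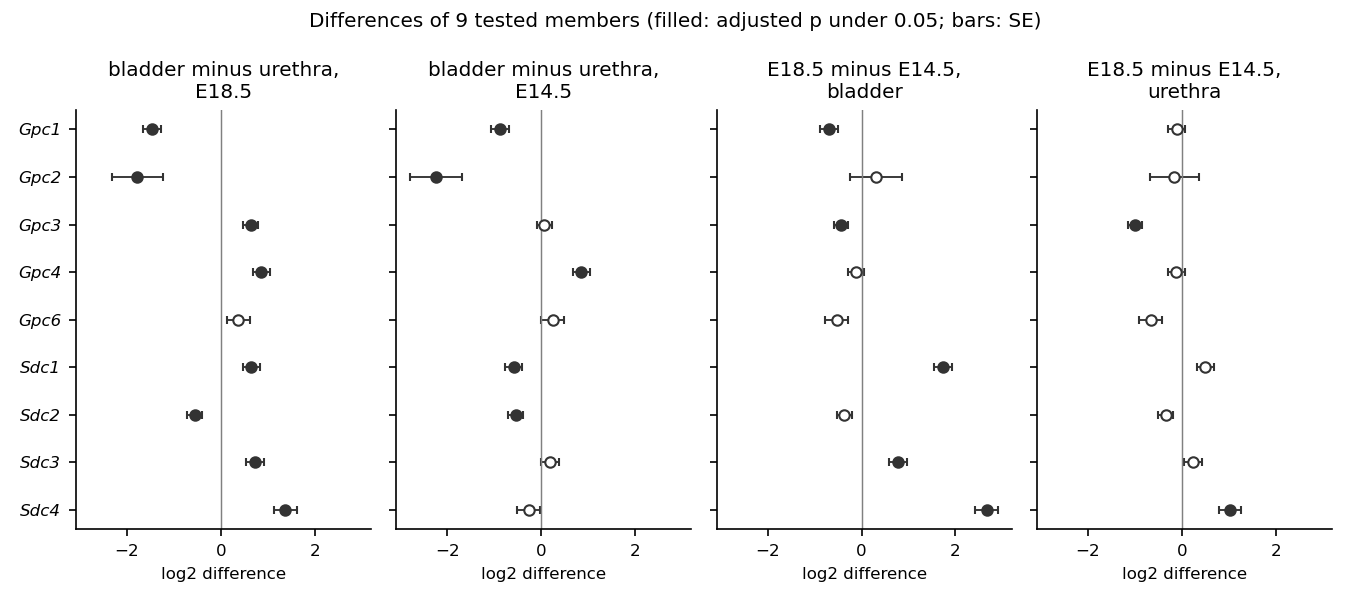
Log2 differences of the 9 tested members in the 4 comparisons, with SE as bars. Filled points have an adjusted p under 0.05. At E18.5 all members other than Gpc6 are filled, and in the bladder Sdc4 (2.66) and Sdc1 (1.74) lie furthest to the right for E18.5 minus E14.5.

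Genes of epithelium were set beside Sdc1 and Sdc4. For the change of the compartment difference, 1 of 17 epithelial genes was called, Trp63 (3.32 ± 0.72, adjusted p = 0.0183), against 8.67% of all tested genes. The median change of the 17 was 1.41, against 0.02 over all tested genes, beside 1.64 ± 0.33 for Sdc4 and 1.24 ± 0.26 for Sdc1. Single epithelial changes ran from 0.00 ± 1.61 (Upk3a) to 4.59 ± 1.28 (Krt5, adjusted p = 0.0505). In the E18.5 comparison 7 of 17 were called, all higher in bladder, against 3482 of all 18805 tested genes called higher. At E14.5, 2 epithelial genes were called higher and 4 lower, against 24.9% of all tested genes called in either direction. The epithelial median was 1.12 at E18.5 and -0.28 at E14.5, beside 0.05 and -0.00 over all tested genes. Between the stages 17 of 17 were called higher at E18.5 in bladder, against 23.7% of all tested genes, and 10 of 17 in urethra, against 13.6%. The uroplakin gene Upk1b averaged 1715 CPM in E18.5 bladder and 303 CPM in E18.5 urethra, against 108 CPM in E14.5 bladder and 37.8 CPM in E14.5 urethra. Upk1b was called higher in E18.5 bladder (2.50 ± 0.65, adjusted p = 0.0114). The basal keratin genes Krt5 (0.49 ± 0.86, adjusted p = 0.716), Krt14 (-0.12 ± 0.54, adjusted p = 0.897) and Krt15 (-0.23 ± 0.66, adjusted p = 0.833) were not called between compartments at E18.5, and neither was Trp63 (0.77 ± 0.49, adjusted p = 0.259), another basal marker. Epcam (0.25 ± 0.43, adjusted p = 0.705), Cdh1 (0.92 ± 0.56, adjusted p = 0.240), Grhl2, Esrp1, Cldn4 and Krt19 were not called there either. Among the E14.5 bladder libraries, replicate 1 had the highest epithelial sum (2050 CPM against 554 and 405) and the highest Sdc4 (55.3 CPM against 31.5 and 27.9), while its Sdc1 (134 CPM) lay between the other replicates. Replicate 1 also had the highest smooth muscle, neuronal, glial and mesothelial sums of that group. The part of epithelial RNA in the Sdc1 and Sdc4 results was not tested. The sum of 6 mesothelial genes, which include Upk1b too, was also highest in E18.5 bladder, at 2530 to 3196 CPM against 274 to 535 CPM in E18.5 urethra. Of these, Upk3b averaged 636 CPM in E18.5 bladder and 37.4 CPM in E18.5 urethra, against 162 CPM in E14.5 bladder and 5.07 CPM in E14.5 urethra, and the part of mesothelial RNA was not tested.

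**Figure D4:**
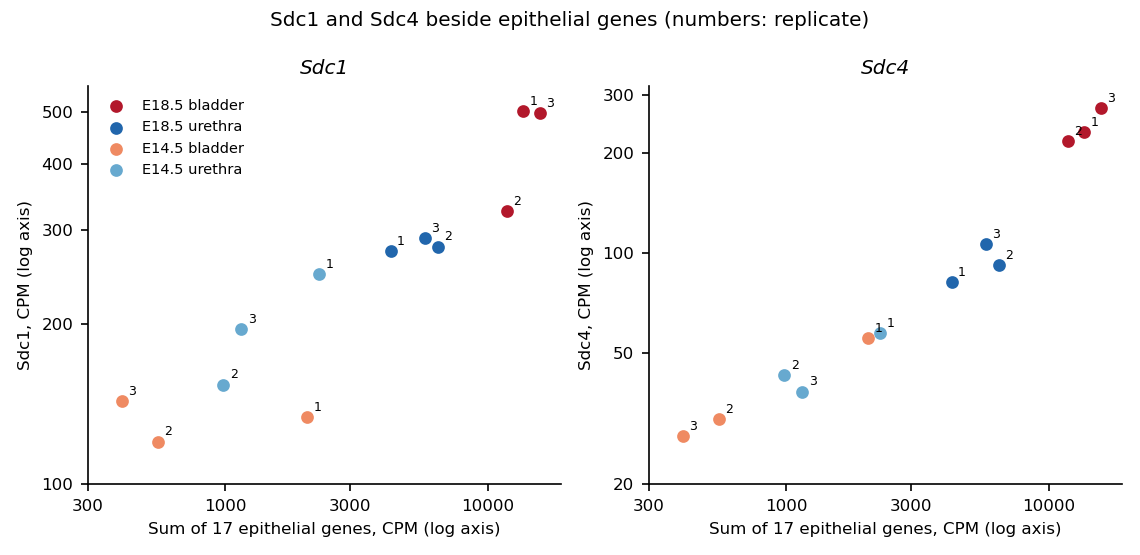
Levels of Sdc1 and Sdc4 (CPM, log axes) against the sum of 17 epithelial genes (CPM) in each library, with replicate numbers beside the points. E18.5 bladder libraries hold the highest values of all measures, and E14.5 bladder replicate 1 lies to the right of replicates 2 and 3.

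Since Sdc4 and Sdc1 moved together, and Gpc3 was the most abundant member, their promoters are shown. RefSeq windows of 250 bases before to 50 after the annotated start (GRCm38.p6) were found for 7 of the 10 members, not for Gpc1, Gpc6 and Sdc2. The windows are chr2:164443139-164443438 on the minus strand for Sdc4, chr12:8771146-8771445 on the plus strand for Sdc1 and chrX:52613925-52614224 on the minus strand for Gpc3, each printed 5′ to 3′ with capitals for a GC box (GGGCGG, or CCGCCC where it is on the other strand).
Sdc4: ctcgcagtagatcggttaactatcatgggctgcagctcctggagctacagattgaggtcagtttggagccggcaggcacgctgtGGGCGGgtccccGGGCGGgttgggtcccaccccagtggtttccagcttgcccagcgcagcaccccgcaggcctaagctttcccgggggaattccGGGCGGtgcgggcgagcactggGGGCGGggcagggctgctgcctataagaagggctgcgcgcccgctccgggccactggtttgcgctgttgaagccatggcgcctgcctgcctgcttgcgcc
Sdc1: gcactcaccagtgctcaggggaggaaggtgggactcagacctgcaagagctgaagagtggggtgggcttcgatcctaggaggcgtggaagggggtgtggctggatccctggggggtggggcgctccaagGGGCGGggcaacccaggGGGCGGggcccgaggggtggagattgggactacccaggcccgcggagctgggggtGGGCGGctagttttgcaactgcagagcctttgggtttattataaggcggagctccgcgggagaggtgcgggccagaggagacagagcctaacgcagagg
Gpc3: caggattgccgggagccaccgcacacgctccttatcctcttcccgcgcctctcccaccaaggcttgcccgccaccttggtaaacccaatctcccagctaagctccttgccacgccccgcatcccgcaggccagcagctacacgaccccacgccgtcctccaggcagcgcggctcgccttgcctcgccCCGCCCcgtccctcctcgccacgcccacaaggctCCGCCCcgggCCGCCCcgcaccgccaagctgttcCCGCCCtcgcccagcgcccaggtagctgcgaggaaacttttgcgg
Sdc4 and Gpc3 held 4 GC boxes each and Sdc1 held 3. A GC box stood in 7 of 7 member promoters, against 35.7% of 32851 RefSeq promoters, and 5.49% of these held at least 4 and 10.7% at least 3. The letters of a TATA box (TATAAA) stood in 1 of 7, that of Gpc5, against 13.6% of all promoters. That match lies on the other strand at base 66 of the window, before the annotated start. Only exact matches were counted, so near matches to TATAAA are not covered. The CCAAT box stood in 3 of 7 (Gpc2, Gpc3 and Sdc1), against 37.4%, and GGAATG, an element bound by TEAD factors, stood in 1 of 7 (Gpc4), against 14.7%. Both strands were searched and no matches overlapped. The GC content was 70.7% in the Gpc3 window, 67.7% in that of Sdc4 and 66.3% in that of Sdc1, against a median of 52.7% over all promoters. A match is a description of these letters and does not show binding.

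The comparison of E18.5 with E14.5 followed each compartment through development. In bladder 5 of 9 members were called, Sdc1, Sdc3 and Sdc4 higher and Gpc1 and Gpc3 lower at E18.5, against 45.7% of all tested genes (23.7% higher and 22.0% lower). In urethra 2 were called, Sdc4 higher and Gpc3 lower, against 24.4% of all tested genes (13.6% higher and 10.8% lower). The stages did not overlap for 6 members in bladder, against 55.8% of all tested genes, and for 4 in urethra, against 44.0%. These comparisons use the same libraries as those between compartments.

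Among the syndecans, Sdc4 rose by 2.66 ± 0.25 on the log2 scale in bladder (6.33-fold, adjusted p = 1.48e-05), with 218 to 274 CPM at E18.5 against 27.9 to 55.3 CPM at E14.5. In urethra it rose by 1.02 ± 0.24 (2.03-fold, adjusted p = 0.00950), with 81.6 to 106 CPM at E18.5 against 38.1 to 57.3 CPM at E14.5. Sdc1 rose by 1.74 ± 0.19 in bladder (3.34-fold, adjusted p = 2.93e-05). In urethra its change of 0.50 ± 0.19 was not called (adjusted p = 0.0689), although the stages did not overlap. It was called there without E14.5 urethral replicate 1 (0.69, adjusted p = 0.0194) and without E18.5 bladder replicate 2 (0.50, adjusted p = 0.0374). Sdc3 rose by 0.78 ± 0.19 in bladder (adjusted p = 0.00603) and its change of 0.24 ± 0.19 in urethra was not called (adjusted p = 0.392). Sdc2 had changes of -0.36 ± 0.15 in bladder and -0.35 ± 0.15 in urethra, neither called (adjusted p = 0.0685 and 0.114). Without E14.5 urethral replicate 2 both were called (-0.36, adjusted p = 0.0331, and -0.49, adjusted p = 0.0295).

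Among the glypicans, Gpc3 fell by 1.001 ± 0.155 on the log2 scale in urethra (2.00-fold lower at E18.5, adjusted p = 0.00117), with 206 to 231 CPM at E18.5 against 347 to 529 CPM at E14.5. In bladder its log2 difference was -0.44 ± 0.15 (adjusted p = 0.0345). That call ended without E18.5 bladder replicate 2 or 3 or E14.5 bladder replicate 1 or 3 (adjusted p = 0.0673 to 0.122). Gpc1 fell in bladder by 0.70 ± 0.19 (log2 difference -0.70, adjusted p = 0.0102), with 57.5 to 85.7 CPM at E18.5 against 112 to 126 CPM at E14.5. Its urethral difference of -0.11 ± 0.19 was not called (adjusted p = 0.707). Gpc4 had -0.12 ± 0.18 in both compartments (adjusted p = 0.619 in bladder and 0.668 in urethra). Gpc6 had -0.53 ± 0.24 in bladder (adjusted p = 0.0948) and -0.66 ± 0.24 in urethra (adjusted p = 0.0672), and the urethral stages did not overlap. The bladder difference of Gpc6 was called without E14.5 bladder replicate 1 (-0.73, adjusted p = 0.0225), and the urethral one without E14.5 bladder replicate 1 or 2 (adjusted p = 0.0406 and 0.0370). Gpc2 had 0.31 ± 0.55 in bladder (adjusted p = 0.671) and -0.16 ± 0.52 in urethra (adjusted p = 0.848). The sum of 8 cell division genes averaged 968 CPM in E18.5 bladder and 652 CPM in E18.5 urethra, against 1529 CPM in E14.5 bladder and 1137 CPM in E14.5 urethra, and its part in the lower levels of Gpc1 and Gpc3 was not tested.

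The genes whose log2 CPM followed a member most closely over the 12 libraries were looked up among 12282 genes for the 4 members that varied most between groups. For Sdc4 they were Hip1r (Pearson r = 0.994), Il17re (0.993) and Tmem79 (0.993). Hip1r averaged 369.6 CPM in E18.5 bladder and 92.0 CPM in E18.5 urethra, against 23.3 CPM in E14.5 bladder and 27.9 CPM in E14.5 urethra. For Sdc1 they were Tuft1 (0.980), Chmp1b (0.970) and Ppp1r13l (0.968). Gpc1 was followed by the survival gene Bcl2 (0.976), Vash1 (0.976) and Tmeff1 (0.972), and Gpc2 by Prpf40b (0.989), Clcn2 (0.978) and Plxna3 (0.958). Bcl2 averaged 33.7 CPM in E18.5 bladder and 94.4 CPM in E18.5 urethra, against 56.2 CPM in E14.5 bladder and 115 CPM in E14.5 urethra. Among the members themselves, r was highest for Sdc1 with Sdc4 (0.922) and Gpc1 with Sdc2 (0.899) and lowest for Gpc2 with Gpc4 (-0.861). The libraries fall into 4 groups, which these values share, so they are descriptions over 12 libraries.

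Heparan sulfate is built on both families by shared enzymes. Of 12 genes for the linker and the chain, 5 were called in the E18.5 compartment comparison, 2 higher and 3 lower in bladder (median log2 difference -0.19, against 0.05 over all tested genes, of which 34.8% were called). Extl1, an exostosin-like glycosyltransferase, had 34.5, 30.8 and 47.1 CPM in E18.5 bladder, against 5.28, 8.07 and 8.88 CPM in E18.5 urethra (2.34 ± 0.32, adjusted p = 0.000162). In bladder Extl1 rose by 3.39 ± 0.34 to E18.5 (adjusted p = 1.90e-05), with 2.61 to 5.49 CPM at E14.5. Xylt1, which attaches the first sugar, was lower in E18.5 bladder (-0.87 ± 0.22, adjusted p = 0.00742), and so was Pxylp1, a phosphatase acting on the xylose of the linker (-1.03 ± 0.22, adjusted p = 0.00321).

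Of 16 genes for N-deacetylation, epimerization and O-sulfation, 10 were called at E18.5, 9 of them lower in bladder (median -0.69), against 16.2% of all tested genes called lower. At E14.5 1 was called higher and 4 lower (median -0.23, against -0.00 over all tested genes). Of all tested genes 12.4% were called higher and 12.5% lower at that stage. Hs3st4, a 3-O-sulfotransferase, had 0.374, 0.429 and 0.256 CPM in E18.5 bladder, against 12.1, 11.9 and 13.9 CPM in E18.5 urethra (-5.18 ± 0.75, adjusted p = 0.000289). At E14.5 it had 5.30, 1.08 and 0.649 CPM in bladder, against 31.2, 12.1 and 18.8 CPM in urethra (-3.15 ± 0.63, adjusted p = 0.00473), and -4.59 without E14.5 bladder replicate 1. Bladder levels of Hs3st4 were below all urethral levels at both stages. Beside this list, all 12 neuronal and 5 of 7 glial genes were called lower in E18.5 bladder. E14.5 bladder replicate 1 had the highest neuronal sum of its group (505 CPM against 192 and 266) and the most Hs3st4. The same library also had the highest smooth muscle, epithelial, glial, skeletal muscle and mesothelial sums of its group. Its endothelial and cell division sums were the lowest. The part of neuronal and glial RNA in the list's differences was not tested. Ndst3, an N-deacetylase and N-sulfotransferase, was lower in bladder by 0.99 at E18.5 (log2 difference -0.99 ± 0.25, adjusted p = 0.00713) and by 1.84 at E14.5 (-1.84 ± 0.25, adjusted p = 0.000407). Hs3st1, which makes the antithrombin-binding site of heparin, was the one higher in E18.5 bladder (1.01 ± 0.26, adjusted p = 0.00924). Without E14.5 urethral replicate 3 the E14.5 count was 3.

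**Figure D5:**
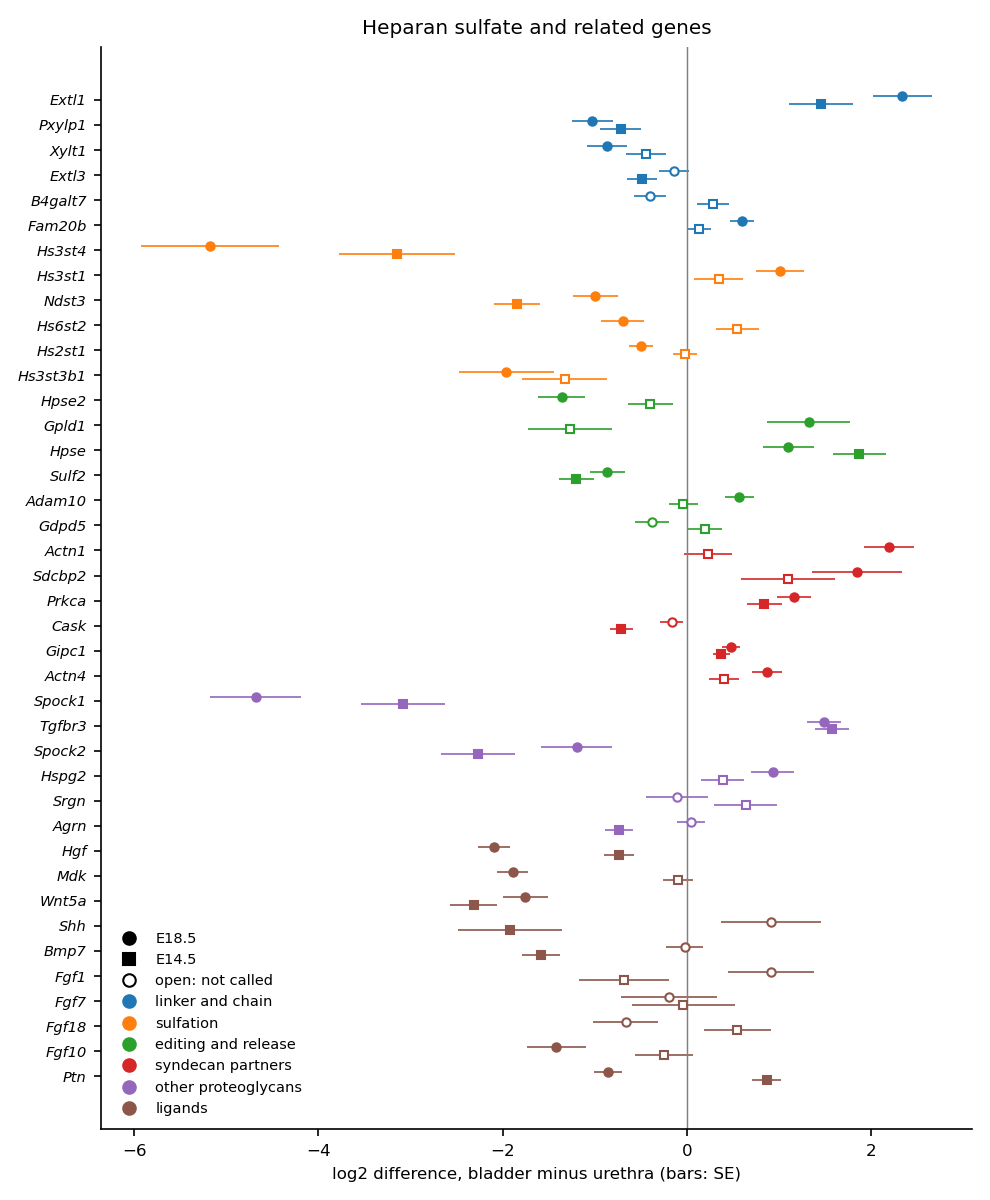
Log2 differences, bladder minus urethra, of the named genes of 6 lists of heparan sulfate and related genes, with SE as bars. Circles are E18.5, squares E14.5 and open points were not called. Hs3st4 (-5.18) and Spock1 (-4.68) lie furthest to the left, and Extl1 (2.34) and Actn1 (2.198) furthest to the right at E18.5.

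Of 11 genes that edit or release the chains and their carriers, 8 were called at E18.5, 5 higher and 3 lower in bladder (median 0.37). Over all tested genes 34.8% were called at this stage (median 0.05). Heparanase, Hpse, which cuts the chain, was higher in bladder at E18.5 (1.10 ± 0.28, adjusted p = 0.00759) and at E14.5 (1.87 ± 0.29, adjusted p = 0.000878). Hpse2, a heparanase relative without cutting activity whose loss in humans impairs bladder emptying, had 44.8, 21.6 and 29.7 CPM in E18.5 bladder, against 98.6, 69.9 and 78.6 CPM in E18.5 urethra. It was lower in E18.5 bladder without overlap (-1.36 ± 0.25, adjusted p = 0.00127). Sulf2, which removes 6-O-sulfate outside the cell, was lower in E14.5 bladder (-1.20 ± 0.19, adjusted p = 0.00114), with 168 ± 35.3 CPM in bladder against 385 ± 88.2 CPM in urethra. Adam10, a protease that sheds syndecans, rose by 0.83 ± 0.16 in bladder to E18.5 (adjusted p = 0.00114). The count of 8 fell to 4 without E18.5 bladder replicate 1, and to 5 without E18.5 bladder replicate 3 or any 1 of the 3 E18.5 urethral libraries.

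Of 8 genes whose proteins bind syndecan tails or act with them, 5 were called at E18.5, all higher in bladder. Of all 18805 tested genes 3482 were called higher there. The median of the 8 was 0.67, against 0.05 over all tested genes. In bladder 5 of the 8 rose to E18.5 (median 0.61), against 23.7% of all tested genes (median -0.02). Actn1, alpha-actinin 1, had 1108, 1268 and 499 CPM in E18.5 bladder, against 229, 204 and 194 CPM in E18.5 urethra (2.198 ± 0.270, adjusted p = 7.98e-05). Its E14.5 libraries held 327, 341 and 314 CPM in bladder, against 306, 231 and 298 CPM in urethra. Bladder replicate 3 was the lowest of its group at E18.5 in Actn1, as in the smooth muscle sum (22590 CPM). Prkca, protein kinase C alpha, was higher in bladder at E18.5 (1.16 ± 0.19, adjusted p = 0.000422) and at E14.5 (0.84 ± 0.19, adjusted p = 0.00682). The part of smooth muscle in these differences was not tested.

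Of 8 other carriers of heparan sulfate, 6 were called at E18.5, 3 in each direction (median -0.03), against 34.8% of all tested genes (median 0.05). In bladder 5 of the 8 rose to E18.5 (median 1.06), against 23.7% of all tested genes (median -0.02). Tgfbr3, a TGF-beta co-receptor, was higher in bladder at E18.5 (1.49 ± 0.18, adjusted p = 6.90e-05) and E14.5 (1.58 ± 0.19, adjusted p = 0.000193). Spock1, a testican, had 0.598, 0.858 and 1.70 CPM in E18.5 bladder, against 16.7, 32.5 and 33.6 CPM in E18.5 urethra (-4.68 ± 0.49, adjusted p = 2.95e-05). It was lower in E14.5 bladder too (-3.08 ± 0.45, adjusted p = 0.000765). Hspg2, the basement membrane proteoglycan perlecan, rose by 1.37 ± 0.24 in bladder to E18.5 (adjusted p = 0.000573).

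Of 18 ligands that bind heparan sulfate, 8 were called at E18.5, all lower in bladder (median -0.69, against 0.05 over all tested genes). Of all tested genes 34.8% were called at this stage, 16.2% lower. At E14.5 7 ligands were called, 6 of them lower, against 24.9% of all tested genes (12.5% lower). Hgf, hepatocyte growth factor, had 3.51, 3.92 and 3.33 CPM in E18.5 bladder, against 17.1, 12.7 and 16.0 CPM in E18.5 urethra (-2.10 ± 0.18, adjusted p = 5.52e-06). Wnt5a was lower in bladder at E18.5 (-1.75 ± 0.25, adjusted p = 0.000197) and at E14.5 (-2.32 ± 0.25, adjusted p = 0.000142). Mdk, midkine, had 64.7, 75.3 and 89.3 CPM in E18.5 bladder, against 298, 238 and 314 CPM in E18.5 urethra (-1.89 ± 0.17, adjusted p = 9.01e-06). Its E14.5 libraries overlapped, with 417, 475 and 554 CPM in bladder, against 564, 433 and 543 CPM in urethra. In bladder Mdk fell by 2.66 on the log2 scale to E18.5 (-2.66 ± 0.17, adjusted p = 2.59e-06).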

How the data were processed

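Trypsin and forceps freed the mesenchyme, RNA came from litter pools, and mRNA libraries from a poly(A) and directional kit were read from both ends, per the labels' protocols. Tools listed in the submitters' processing notes are HISAT2 2.2.1, SAMtools 1.9 and bcl2fastq, with the build GRCm38. The counting tool, strand setting and annotation are not given in the sources used here, so reads of overlapping genes on opposite strands may not be separated. Both deposited tables, 1 for each stage, hold raw read counts by gene symbol without normalization, and per the file headers each row gives exon coordinates and summed exon length. Counts of 2 outnumbered counts of 1 by 2.06 to 2.51 times in each library, a pattern of counting both ends of a fragment. Intervals and floors cover counting error only.

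Genes were filtered with filterByExpr (minimum count 10), scaled by TMM and tested in R 4.3.3 with edgeR 4.0.16 (robust quasi-likelihood F test, 4 group means over 12 libraries, 8 residual degrees of freedom), with Benjamini-Hochberg adjustment over 18805 genes in each comparison. Gpc5 did not pass the filter. The members and gene lists were chosen with earlier results of these data known. From each of 6 lists of heparan sulfate and related genes, the named genes are among the 3 with the largest called change per comparison and at least 5 CPM in the higher group. Likeness is the Pearson correlation of log2 CPM (prior count 2), leaving out predicted genes. Promoters are RefSeq's, matched by symbol. Scripts were tested on simulated data.

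Alternatives were DESeq2 1.42.0, limma-voom (limma 3.58.1), median-ratio size factors in edgeR, dropping the filter or tightening it, omitting single libraries or both E14.5 replicates numbered 1, restricting a fit to the 6 libraries it compares, and blocking on the replicate number. Each litter yielded both compartments, per the labels' design text, but no label ties a replicate number to a litter. The reported fit held no block, so its tests did not treat libraries as pairs, and the block was run only as an alternative. After subtraction of group means, bladder and urethral libraries with the same number correlated at 0.197, 0.193 and 0.286 at E18.5, each over 0.1. At this stage the numbers may therefore mark pairs. At E14.5 the values were 0.191, -0.0285 and 0.206, and bladder replicate 2 correlated at 0.133 with urethral replicate 3, so the numbers are less clear there.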

Additional observations from a re-analysis of the deposited data

Results flagged for a closer look

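For the members, the bladder minus urethra difference itself changed between the stages for Sdc1 (by 1.24 ± 0.26 on the log2 scale, E18.5 minus E14.5, adjusted p = 0.0132) and Sdc4 (1.64 ± 0.33, adjusted p = 0.0113, edgeR). Among the named genes of the heparan sulfate lists, the same test called Actn1 (1.97, adjusted p = 0.00798), Mdk (-1.80, adjusted p = 0.00157) and Ptn, pleiotrophin (-1.72, adjusted p = 0.00142). Ptn had 128, 189.9 and 158 CPM in E18.5 bladder and 275, 287 and 299 CPM in E18.5 urethra, against 524, 449 and 586 CPM in E14.5 bladder and 255, 327 and 273 CPM in E14.5 urethra, so bladder was below urethra at E18.5 and above it at E14.5 without overlap. The calls of Hs6st2, a 6-O-sulfotransferase (-1.24, adjusted p = 0.0355), Gpld1, a phospholipase that cuts GPI anchors (2.59, adjusted p = 0.0315), Agrn, agrin (0.78, adjusted p = 0.0404), and Shh (2.84, adjusted p = 0.0493) each ended when some single libraries were left out. The Agrn call also ended with the replicate number as a block (0.77, adjusted p = 0.0509). Without E14.5 bladder replicate 1 the change of Gpld1 was 3.31 and that of Shh 3.86. The part of other cell types in these changes was not tested.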

How the results depend on the processing

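Of the members' differences, 826 kept their side of the threshold under an alternative, 16 gained a call and 31 lost one, and none of them changed direction while called. Of the 9 members, 5 to 8 were called at E18.5 between compartments with 1 library left out and 2 to 5 at E14.5. Without replicate 1 of both E14.5 groups, 3 were called at E14.5 and 4 between the urethral stages, and fitting only the 6 libraries compared also gave 4 between the urethral stages. Each E14.5 replicate 1 held the least globin Hbb-y of its group. Bladder had 16.2 CPM against 150 and 132, and urethra 7.41 CPM against 175 and 76.8. Each also held the most Des, with 300 CPM against 106 and 84.8 in bladder and 117 CPM against 29.2 and 37.5 in urethra. The cause was not tested. With the replicate number as a block, 8 members were called at E18.5, 5 at E14.5 and 2 for the change between stages, so the block moved none of these counts. Among the named list genes the block ended the Agrn call for the change between stages (adjusted p = 0.0509). Without a low-count filter the Gpc2 calls ended (adjusted p = 0.0870 at E18.5 and 0.0527 at E14.5).

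Over all genes, 4677 were called at E14.5, against 2933 with only the 6 libraries compared and 2753 without bladder replicate 3. Between the urethral stages 4586 were called, against 2392 without E14.5 urethral replicate 3. For the change between stages 1631 were called, against 2596 by DESeq2, 2517 without replicate 1 of both E14.5 groups and 1011 without E14.5 bladder replicate 3. The causes were not tested. Depth limits Gpc5 most, with 63 counts in all, and 3 litters per stage limit every test.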
